A study of Mus musculus with 9 samples.

Results

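The genes described here encode 9 neuronal adhesion proteins, taken from the expression table by their symbols. They are 4 members of the IgLON family (Negr1, Lsamp, Opcml and Ntm), 2 neurexins (Nrxn2 and Nrxn3) and 3 neuroligins (Nlgn1, Nlgn2 and Nlgn3). All 9 were among the 14029 named genes that passed the filter on low values, out of 21356 distinct symbols in the table. The table came from poly-A selected RNA of midbrain tissue dissected from C57BL/6 embryos at E13.5, with 3 libraries per genotype, and the comparisons ask how transcription in the midbrain differs once Gpr161 is deleted. The floxed control (Gpr161f/f) carried 2 floxed alleles of Gpr161 and no Cre. The Cre control (Gpr161f/+;Wnt1-Cre) carried 1 floxed allele and the Cre transgene, and the cKO (Gpr161f/f;Wnt1-Cre) carried both floxed alleles and the transgene. In the table these groups are headed WT, Het and KO, and the cKO titles spell the gene Gpt161. Wnt1-Cre acts in the dorsal midbrain neuroectoderm and the neural crest, so the dissected tissue also holds cells in which it did not act. A difference between the cKO and the floxed control therefore joins the loss of Gpr161 with the presence of the transgene, and these cannot be told apart in that comparison.

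IgLON proteins are small cell surface proteins with 3 immunoglobulin domains, held in the membrane by a lipid (GPI) anchor. They bind themselves and each other between neighbouring cells and act on neurite outgrowth and on the forming of synapses. Neurexins are presynaptic membrane proteins, made in long alpha and short beta forms from separate promoters of 1 gene. Their best known partners across the synaptic cleft are the neuroligins, postsynaptic proteins that recruit scaffolds and transmitter receptors. Among the neuroligins, Nlgn1 is found mainly at excitatory synapses, Nlgn2 mainly at inhibitory synapses and Nlgn3 at both. Which cells of the embryonic midbrain expressed these genes is not resolved by values from whole tissue.

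Most of these genes are long. In GRCm38, the assembly also called mm10, Lsamp spans 2197 kb (chr16:39984361-42181679), Nrxn3 1612 kb (chr12:88722876-90334935) and Opcml 1135 kb (chr9:27790775-28925410). Ntm spans 968.4 kb (chr9:28994750-29963141), Nlgn1 906.2 kb (chr3:25426215-26332460) and Negr1 754.7 kb (chr3:156561794-157316445). Nrxn2 is shorter, with 125.4 kb (chr19:6418731-6544169), and Nlgn3 (chrX:101299168-101325963) and Nlgn2 (chr11:69823122-69837784) cover 26.8 kb and 14.66 kb. The median span of the genes tested was 25.53 kb. Opcml and Ntm are neighbours on chromosome 9, on opposite strands with their 3′ ends 69.3 kb apart. There is a single value for each gene with no division by transcript, so alpha and beta neurexins are summed. In the annotation, 41.2% of the exon bases of Nlgn3 are shared with Gm21986 on the same strand, and 9.16% of those of Nlgn1 with the antisense gene A830092H15Rik. How reads from such bases were assigned is not given in the sources used here, so the values of these 2 genes are less certain than the others.

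Promoter sequences are shown for the gene with the largest difference, for a gene with a small one, and for the start site with the most E boxes. RefSeq (GRCm38.p6) lists 12 promoter windows for 7 of the 9 genes, and the 250 bases before each start site were searched. Capitals mark E boxes, the letters CANNTG on either strand, which proneural bHLH factors are known to bind. The Negr1 window (chr3:156561544-156561793, plus strand), the Nlgn2 window (chr11:69837785-69838034, minus strand) and the most downstream of the Nrxn3 windows (chr12:89812233-89812482, plus strand) read, 5′ to 3′:
Negr1: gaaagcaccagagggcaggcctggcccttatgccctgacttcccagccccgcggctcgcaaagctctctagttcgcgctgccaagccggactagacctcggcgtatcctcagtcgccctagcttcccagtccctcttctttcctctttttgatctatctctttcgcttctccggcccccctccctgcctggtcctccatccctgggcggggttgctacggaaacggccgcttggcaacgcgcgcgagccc
Nlgn2: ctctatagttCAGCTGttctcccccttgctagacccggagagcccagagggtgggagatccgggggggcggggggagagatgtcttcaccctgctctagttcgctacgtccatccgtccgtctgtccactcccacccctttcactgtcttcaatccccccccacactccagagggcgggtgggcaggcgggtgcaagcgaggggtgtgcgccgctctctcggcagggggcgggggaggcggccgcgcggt
Nrxn3: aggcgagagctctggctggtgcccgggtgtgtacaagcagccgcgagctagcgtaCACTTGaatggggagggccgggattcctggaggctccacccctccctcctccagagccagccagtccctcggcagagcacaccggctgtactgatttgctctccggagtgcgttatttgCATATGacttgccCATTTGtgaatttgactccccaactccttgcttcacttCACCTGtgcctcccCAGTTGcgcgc
E boxes were present in 8 of the 12 windows and in 66.2% of 32851 windows of all genes. The Nrxn3 window shown holds 5 of them, the Nlgn2 window 1 and the Negr1 window 0. A Gli site, GACCACCCA on either strand, was in 0 of the 12 windows and in 0.225% of all windows. The Negr1 and Nlgn2 windows hold 19 and 18 CpG dinucleotides, against a median of 6. These matches describe the letters of the windows and were not tested for binding.

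Expression is given as the deposited log2 value, on which a step of 1 is a doubling. The log2 values were normalized between libraries by the authors and are compressed for weakly expressed genes, which the members are not, with values between 8.83 and 12.47. Read depth is unknown because the table holds no counts. Gpr161 itself was not lower in the cKO. Its log2 value lay between 11.74 and 11.80 in the floxed control, between 11.77 and 11.96 in the Cre control and between 11.74 and 11.95 in the cKO (0.11 above the floxed control on the log2 scale, limma, adjusted p = 0.223). The value does not separate the deleted exon from the rest of the transcript, so it does not check the deletion. Cre control replicate 1 stood farther from its group than any other library, with a mean distance of 0.00455 (1 minus Spearman's correlation) against 0.00158 to 0.00327 for the other 8.

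All 9 adhesion genes were expressed in every library, and on the deposited scale their group means had the same order, with the floxed control highest and the cKO lowest. Against the floxed control, 8 of the 9 were lower in the cKO past the adjusted p, by 18.4% to 46.7%, and Nlgn3 did not pass, while relative to the pan-neuronal genes of the same library, a scale described further on, the differences of 7 genes (all but Negr1 and Nlgn1) turned positive. The median of all genes moved up on that scale too, from 0.01 to 0.51. Of the 7 only Nlgn2 and Nlgn3 passed as higher, a call made for 88.6% of all genes. The order of means was shared by 30.6% of all genes tested. Calls of lower expression came from a linear model per gene over all 9 libraries with limma, adjusted over all genes by Benjamini-Hochberg, and the same call was made for 18.8% of all genes. With a fold change limit of 1.5 added, which defines a DEG, Negr1 alone of the 9 remained in this comparison, where 1.58% of all genes were lower DEGs. The libraries of the same 8 genes did not overlap between these 2 groups, as in 27.3% of all genes, and at an unadjusted p under 0.05 all 9 passed, as did 48.1% of all genes. For Negr1, Opcml and Nlgn2, every floxed control library lay above every Cre control library and each of these above every cKO library, an order seen in 4.23% of all genes.

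**Figure D1:**
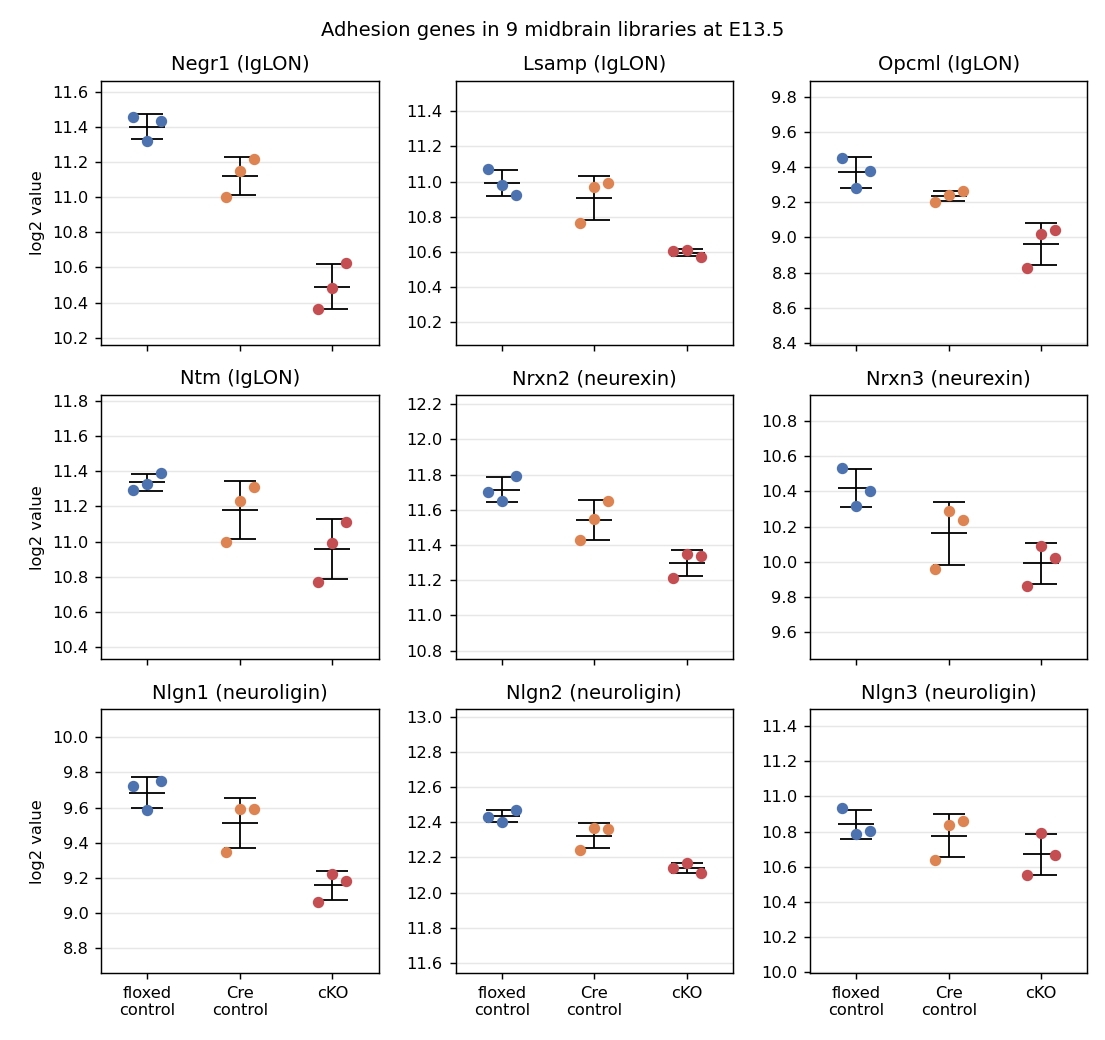
Log2 values of the 9 adhesion genes (vertical axes, each spanning 1.5 log2 units) in the floxed control, Cre control and cKO libraries. Points are libraries, in order of replicate number, and bars show the mean and SD of 3 libraries. Negr1, Opcml and Nlgn2 separate into 3 levels without overlap, while the Nlgn3 libraries of the 3 groups overlap.

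Among the IgLON genes, Negr1 (neuronal growth regulator 1) differed most. Its log2 values were 11.45, 11.32 and 11.43 in the floxed control, 11.002, 11.15 and 11.21 in the Cre control and 10.37, 10.48 and 10.63 in the cKO. The 3 groups did not overlap, and the lowest Cre control value lay above the highest cKO value. The cKO mean of 10.49 ± 0.13 (SD, n = 3) was 0.91 below that of the floxed control on the log2 scale (standard error 0.074, 95% interval -1.07 to -0.74, limma, adjusted p = 1.56e-04). The level was thus 53.3% of the floxed control. Against the Cre control it was 64.7%, with a log2 fold change of -0.63 (SE 0.074, limma, adjusted p = 0.00240), and lower DEGs made up 0.228% of all genes there. This difference kept its call in every alternative, but it was just short of the 1.5-fold limit after leaving out Cre control replicate 3 (-0.58) or cKO replicate 1 (-0.57), and well below it on the pan-neuronal scale (-0.40).

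Lsamp, the limbic system-associated membrane protein, had log2 values of 11.07, 10.98 and 10.92 in the floxed control, 10.77, 10.97 and 10.99 in the Cre control and 10.61, 10.61 and 10.57 in the cKO. The controls overlapped each other, and all cKO libraries lay below both. The difference was -0.40 from the floxed control and -0.31 from the Cre control on the log2 scale (standard error 0.062, limma, adjusted p = 0.00144 and 0.0191).

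Opcml, the opioid-binding cell adhesion protein, was at 9.45, 9.28 and 9.38 in the floxed control, at 9.20, 9.24 and 9.26 in the Cre control and at 8.83, 9.02 and 9.04 in the cKO. It fell by 0.41 and 0.27 on the log2 scale (standard error 0.068, limma, adjusted p = 0.00191 and 0.0375). For its neighbour Ntm (neurotrimin), the values were 11.29, 11.33 and 11.39, then 10.997, 11.23 and 11.31, and 10.77, 10.99 and 11.11 in the same order of groups. The Ntm libraries of the cKO lay below those of the floxed control but overlapped those of the Cre control. Accordingly Ntm fell by 0.38 when the floxed control was the reference (SE 0.093, limma, adjusted p = 0.0106). Its distance to the Cre control, -0.22 with a 95% interval from -0.43 to -0.01, did not pass (adjusted p = 0.148). Without 1 library at a time it ranged from -0.13 (without cKO replicate 1) to -0.31 (without Cre control replicate 1), and it passed in the latter fit (adjusted p = 0.0265).

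The gap between Negr1 and the other IgLON genes of the same library was lowest in the cKO. Negr1 exceeded Lsamp by 0.34 to 0.51 in the floxed control and by 0.18 to 0.24 in the Cre control on the log2 scale, and the difference was between -0.24 and 0.06 in the cKO. It exceeded Opcml by means of 2.03 ± 0.027, 1.89 ± 0.079 and 1.53 ± 0.062 (SD, n = 3) in the 3 groups in turn. From Ntm it differed by -0.01 to 0.16 and -0.10 to 0.01 in the controls, and by -0.51 to -0.41 in the cKO. In all 3 pairs the cKO libraries lay below those of both controls. These gaps are given as ranges and were not tested.

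Nrxn2 and Nrxn3 differed from the floxed control by almost the same amount. Nrxn2 was at 11.70, 11.65 and 11.79 in the floxed control, 11.43, 11.54 and 11.65 in the Cre control and 11.21, 11.35 and 11.34 in the cKO. Every cKO library was below every control library, with log2 fold changes of -0.41 and -0.24 (standard error 0.064, limma, adjusted p = 0.00132 and 0.0423). Nrxn3 was at 10.53, 10.32 and 10.40, then 9.96, 10.29 and 10.24, and 9.86, 10.09 and 10.02. Its cKO libraries overlapped those of the Cre control, in which replicate 1 was the lowest. Nrxn3 fell by 0.43 from its floxed control level (SE 0.094, limma, adjusted p = 0.00628). Against the Cre control it was -0.17 (adjusted p = 0.252), and without Cre control replicate 1 the difference was -0.27 (adjusted p = 0.0323). Within libraries Nrxn2 exceeded Nrxn3 by 1.17 to 1.39 in the floxed control, by 1.26 to 1.47 in the Cre control and by 1.26 to 1.35 in the cKO, so the ranges of the 3 groups overlapped.

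The 3 neuroligins differed by unequal amounts. Nlgn1 was at 9.72, 9.58 and 9.75 in the floxed control, 9.35, 9.59 and 9.59 in the Cre control and 9.07, 9.22 and 9.19 in the cKO. Its cKO libraries lay below all control libraries, with log2 fold changes of -0.53 and -0.35 (standard error 0.078, limma, adjusted p = 0.00115 and 0.0261). Nlgn2, the most abundant of the 9, was at 12.43, 12.40 and 12.47, then 12.24, 12.37 and 12.36, and 12.14, 12.17 and 12.11. Its cKO libraries too lay below all control libraries, and it fell by 0.29 and 0.18 on the log2 scale (standard error 0.043, limma, adjusted p = 0.00112 and 0.0314). Nlgn3, on the X chromosome, was at 10.93, 10.78 and 10.80 in the floxed control, 10.64, 10.84 and 10.86 in the Cre control and 10.55, 10.79 and 10.67 in the cKO. These ranges overlapped, and neither difference passed (-0.17, adjusted p = 0.0998, and -0.11, limma, adjusted p = 0.371). The 95% interval of the first, -0.34 to -0.0024, leaves room for a difference as large as that of Nlgn2. Within libraries, Nlgn1 was below Nlgn3 by a difference of -1.21 to -1.05 in the floxed control, -1.29 to -1.24 in the Cre control and -1.56 to -1.48 in the cKO.

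**Figure D2:**
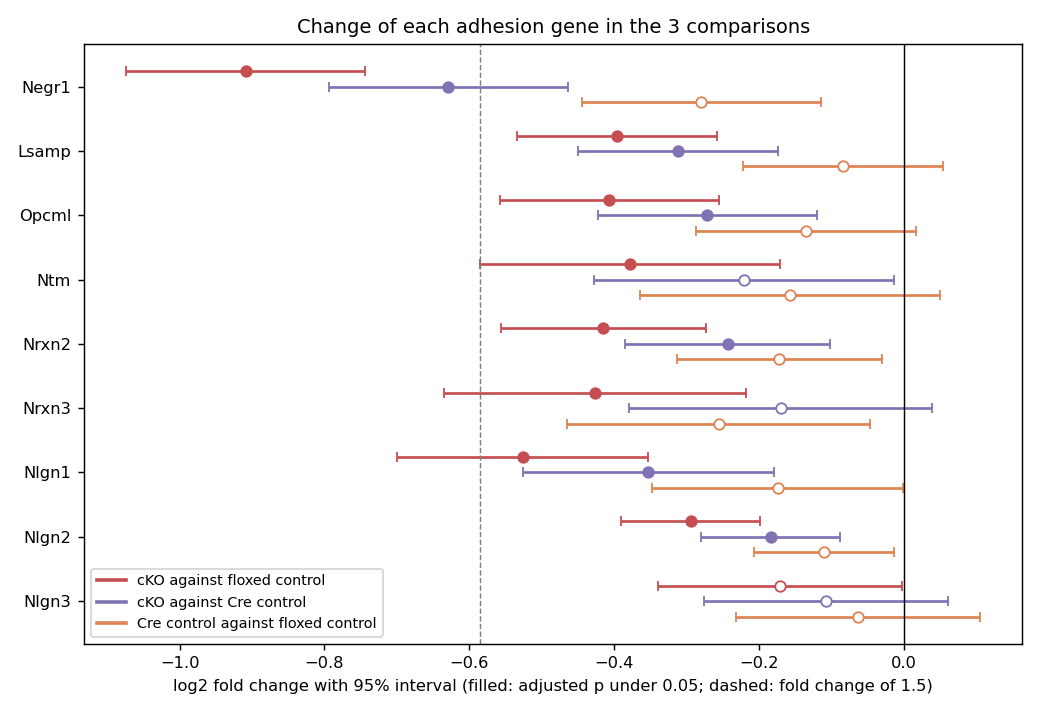
Log2 fold change (horizontal axis) of each adhesion gene in the 3 comparisons, with its 95% interval from limma. Filled points passed the adjusted p, and the dashed line marks a fold change of 1.5. All 27 points lie below 0 on the deposited scale, 14 of them filled (relative to pan-neuronal genes 7, 4 and 8 of the 9 turn positive in the 3 comparisons), and Negr1 lies beyond the dashed line in both comparisons of the cKO. Relative to pan-neuronal genes the medians of all genes tested are 0.51, 0.25 and 0.27 in turn.

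Levels of different genes were compared per kb of annotated exon sequence, as the linear value divided by the length of all exons joined. In the floxed control Nlgn2 was highest with 957 ± 23.3 per kb (SD, n = 3), followed by Ntm with 320 ± 11.01. Negr1 with 257 ± 12.7 and Nrxn2 with 243 ± 12.1 overlapped each other, and Nlgn3 had 198 ± 11.3. Lsamp with 119 ± 6.09 and Nrxn3 with 109 ± 8.18 overlapped, and Nlgn1 with 61.4 ± 3.72 and Opcml with 45.6 ± 2.75 were lowest. In the cKO, Negr1 was at 137 ± 12.5 per kb, below Nrxn2 with 183 ± 9.39 and Nlgn3 with 176 ± 14.4, whose libraries it did not overlap. The order of the other 8 genes was the same in both groups. The transcript lengths behind the deposited values are not known, which limits this comparison between genes.

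Cre control and cKO share the transgene, and relative to the Cre control 6 genes passed as lower (Negr1, Lsamp, Opcml, Nrxn2, Nlgn1 and Nlgn2) and all 9 differences were negative, of which those of Ntm, Nrxn3, Nlgn2 and Nlgn3 turned positive on the pan-neuronal scale. There the median of all genes was 0.25. Of all genes tested, 4.85% were called lower in this comparison. The libraries of the same 6 genes did not overlap, as in 13.7% of all genes. The count rested on single libraries: it was 8 without Cre control replicate 1, 3 without cKO replicate 3, and 1 after leaving out the second or the third Cre control library or the first or the second cKO library. The gene left in each of these last 4 fits was Negr1. The calls over all genes moved with it, from 1363 (9.72% of all genes, in either direction) to 3292 without Cre control replicate 1 and to between 237 and 844 without cKO or other Cre control libraries.

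The 2 controls differ in the transgene and in 1 allele of Gpr161, and between them 0 of the 9 genes passed the adjusted p by limma. Over all genes 0.057% passed (8 genes). In 4 of the 9 (Negr1, Opcml, Nrxn3 and Nlgn2) every Cre control library was below every floxed control library, as in 12.1% of all genes. At an unadjusted p under 0.05 there were 5 (Negr1, Nrxn2, Nrxn3, Nlgn1 and Nlgn2), against 17.5% of all genes. The largest log2 fold changes were those of Negr1 with -0.28 (95% interval -0.44 to -0.11, adjusted p = 0.158) and Nrxn3 with -0.26 (adjusted p = 0.226). The smallest were Lsamp with -0.08 and Nlgn3 with -0.06. Without Cre control replicate 1 they were -0.01 and 0.0066, and the difference of Ntm was -0.07 in place of -0.16.

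Genes of neurons as a whole were lower in the same libraries. The mean log2 value of 12 pan-neuronal genes (among them Tubb3, Dcx, Map2 and Gap43) was 13.81, 13.77 and 13.90 in the floxed control, 13.38, 13.64 and 13.66 in the Cre control and 13.19, 13.37 and 13.41 in the cKO. All 12 had lower expression in the cKO past the adjusted p when set against the floxed control (median -0.51) and 4 of them than in the Cre control (median -0.23). Their summed linear level was 200539 to 218094 in the floxed control, 154299 to 192602 in the Cre control and 135282 to 156820 in the cKO. Of 11 neural progenitor genes, 10 rose relative to the floxed control (median 0.41) and 4 relative to the Cre control (median 0.25), where 19.5% and 4.86% of all genes were called higher. In whole tissue, fewer neurons and less RNA of these genes per neuron cannot be told apart. The medians of the 9 adhesion genes were -0.41 and -0.24, beside 0.01 for all genes tested in both comparisons.

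To place the adhesion genes beside the neuronal signal of the same library, all values were also expressed relative to the mean of the 12 pan-neuronal genes and the model was fitted again. On this scale the median of all genes moved up, from 0.01 to 0.51 against the floxed control and from 0.01 to 0.25 against the Cre control, so changes are read against these shifts. Negr1 stayed lower, with -0.41 for the floxed control as reference (SE 0.084, limma, adjusted p = 3.51e-04) and -0.40 for the Cre control (adjusted p = 0.0103). On this scale 0.478% and 0.513% of all genes were called lower, among them some of the adhesion, scaffold and ligand genes described further on. Nlgn1, Lsamp, Opcml, Ntm, Nrxn2 and Nrxn3 were between -0.02 and 0.13 against the floxed control, and none of these 6 passed (adjusted p from 0.153 to 0.811). Nlgn2 and Nlgn3 passed as higher than the floxed control, by 0.21 and 0.33 (adjusted p = 0.0350 and 0.00243), a call made for 88.6% of all genes. Against the Cre control the 8 genes other than Negr1 lay between -0.12 and 0.13 and did not pass.

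**Figure D3:**
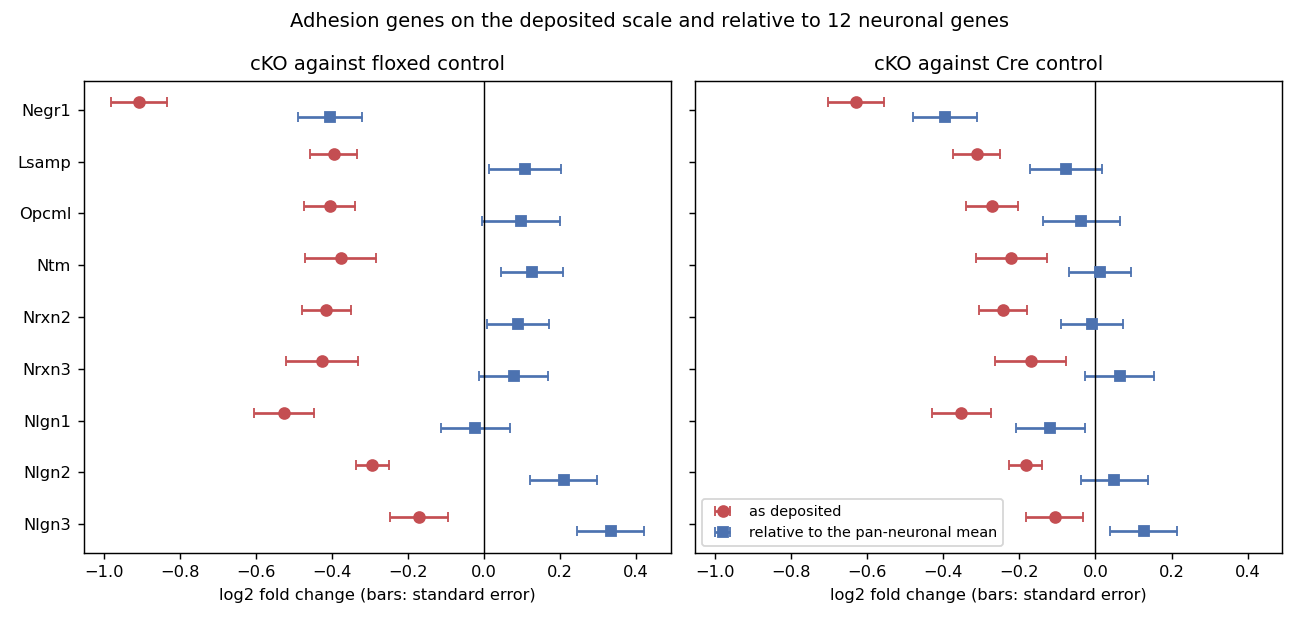
Log2 fold change of each adhesion gene in the cKO (horizontal axes, bars are standard errors) on the deposited scale (circles) and relative to the mean of 12 pan-neuronal genes in the same library (squares). Negr1 stays below 0 on both scales in both panels, while 7 of the other 8 genes turn positive against the floxed control and Nlgn1 lies at -0.02. On the relative scale the medians of all genes tested are 0.51 and 0.25.

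Markers of other cells also moved with the groups. Of 9 erythroid genes, 7 were higher in the cKO than in the floxed control, with summed linear levels of 152267 to 258939 in the floxed control, 183384 to 211008 in the Cre control and 237944 to 459753 in the cKO. Of 7 mesenchyme and meninges genes 5 were higher, with 25739 to 48734, 32921 to 56482 and 57300 to 60164. Of 4 choroid plexus genes 1 was lower, with 2633 to 14042, 809 to 5824 and 1178 to 2507. Endothelial sums were 4871 to 6339, 5237 to 6847 and 6378 to 6860, with 2 of 5 genes higher, and 0 of 6 microglial genes passed. With the Cre control as reference, 4 of the 9 erythroid genes were higher and 0 of the mesenchyme and meninges, choroid plexus, endothelial and microglial genes passed. Over all genes, 19.5% were higher and 18.8% lower than in the floxed control. Against the Cre control these shares were 4.86% and 4.85%. In each of these marker lists 0 markers were at 0 in every library. Their part in the differences of the adhesion genes was not tested. The midbrain markers En1, En2, Otx2, Pax3, Pax7, Lmx1b and Foxa2 were all expressed. Of these 7, Pax7 and Pax3, which are genes of the dorsal midbrain, were lower in the cKO than in the floxed control (log2 fold changes of -0.48 and -0.37, limma, adjusted p = 0.00595 and 0.0128), the other 5 did not pass there, and 0 of 7 passed with the Cre control as reference. Of 3 hindbrain genes tested, Hoxa2 and Hoxb2 were lower in the cKO than in the floxed control, with log2 fold changes of -0.85 and -0.89 (0.02 and 0.07 against the Cre control). The other hindbrain gene, Gbx2, did not pass (0.09, limma, adjusted p = 0.561, and -0.04 against the Cre control).

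Iglon5, a further gene of the IgLON family, fell by 0.34 from its floxed control level (limma, adjusted p = 0.00200), or stood at 0.16 relative to pan-neuronal genes (adjusted p = 0.0913), and did not pass in the other comparison (-0.19, adjusted p = 0.0615).

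Genes of proteins that bind neurexins or neuroligins from outside the cell were examined as a group. Of 26 such genes 25 could be tested. Of these, 17 were lower and 0 higher than in the floxed control (median -0.36, or 0.14 relative to pan-neuronal genes), beside 18.8% of all genes called lower. On the pan-neuronal scale 2 of the 25 were lower and 9 higher than in the floxed control, beside 0.478% and 88.6% of all genes. Against the Cre control 6 were lower on the deposited scale (median -0.20, or 0.03), beside 4.85% of all genes. Cbln2, a secreted bridge between neurexins and glutamate receptors of the delta type, fell by 0.78 and 0.51 (limma, adjusted p = 2.56e-04 and 0.00814). The neurexophilin Nxph4, a secreted neurexin ligand, fell by 0.78 and 0.38 (adjusted p = 5.35e-04 and 0.0340). Mdga1, a GPI-anchored protein that blocks neuroligins from binding neurexins, fell by 0.55 and 0.36 (adjusted p = 2.39e-04 and 0.00789). The latrophilin Adgrl1, an adhesion receptor that binds teneurins and neurexins, fell by 0.44 and 0.25 (adjusted p = 8.30e-04 and 0.0332).

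Inside the cell, neurexins and neuroligins are held by scaffold proteins. Of 17 scaffold genes, 15 were lower and 1 higher than in the floxed control (median -0.35, or 0.15 relative to pan-neuronal genes) and 6 were lower than in the Cre control (median -0.18, or 0.06). Dlg2 (PSD-93) fell by 0.61 and 0.59 (limma, adjusted p = 3.47e-04 and 0.00183), past the 1.5-fold limit in both comparisons. Apba1 (Mint1), a presynaptic adaptor, fell by 0.78 and 0.53 (adjusted p = 5.26e-04 and 0.0132). Shank1, a postsynaptic scaffold, fell by 0.72 from its floxed control level (adjusted p = 0.00131) and was at -0.38 against the Cre control (adjusted p = 0.0556), while its relative Shank2 fell by 0.49 and 0.33 (adjusted p = 5.85e-04 and 0.0152).

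Other neuronal adhesion genes of the immunoglobulin superfamily had a lower median than the members in both comparisons of the cKO, a contrast that was not tested. Of 20 genes, 18 were lower than in the floxed control (median -0.48, or 0.02 relative to pan-neuronal genes) and 10 lower than in the Cre control (median -0.33, or -0.09), with 0 higher in either on the deposited scale. On the pan-neuronal scale 3 of the 20 were lower and 4 higher than in the floxed control, beside 0.478% and 88.6% of all genes. On the deposited scale 18.8% and 4.85% of all genes were called lower in the 2 comparisons. Cadm2 fell by 0.78 and 0.58 (limma, adjusted p = 9.13e-04 and 0.0153), and Chl1, L1cam, Cadm3 and Dscam fell by 0.74, 0.73, 0.62 and 0.61 against the floxed control. The contactins Cntn1 and Cntn2, GPI-anchored like the IgLON proteins, fell by 0.54 and 0.55 (adjusted p = 3.76e-04 and 5.45e-04), and Dscaml1 and Cadm1 by 0.49 and 0.39. Of 26 other synaptic organizers 25 were tested, with 17 lower and 2 higher than in the floxed control (median -0.29, or 0.21 relative to pan-neuronal genes) and 5 lower than in the Cre control (median -0.15, or 0.09). The teneurin Tenm1 fell by 0.73 and 0.62 (adjusted p = 2.06e-04 and 0.00171), and Lrfn5, Tenm2, Slitrk3 and Slitrk4 fell by 0.69, 0.59, 0.58 and 0.49 relative to the floxed control. The 2 that rose, Flrt1 by 0.36 and Flrt3 by 0.29 (adjusted p = 0.00135 and 0.00150), encode leucine-rich repeat ligands of latrophilins. Neither passed with the Cre control as reference, where 0 of the 25 organizers were called higher. Flrt3 was named after its values were seen.

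Neurexin and neuroligin transcripts are spliced in many forms, and the factors that act on these exons were examined as a group. Of 11 such genes, 8 were lower and 1 higher than in the floxed control (median -0.32, or 0.18 relative to pan-neuronal genes), and 3 were lower and 1 higher than in the Cre control (median -0.18, or 0.05). On the pan-neuronal scale 1 of the 11 was lower and 5 higher than in the floxed control, beside 0.478% and 88.6% of all genes. On the deposited scale 18.8% of all genes were lower and 19.5% higher than in the floxed control. Against the Cre control these shares were 4.85% and 4.86%. Rbfox1 fell by 0.81 and 0.52 (limma, adjusted p = 8.23e-04 and 0.0237) and Khdrbs2 (SLM1), which acts on a neurexin exon, by 0.62 and 0.40 (adjusted p = 2.26e-04 and 0.00749). Nova1, a splicing factor of neurons, fell by 0.47 relative to the floxed control (adjusted p = 0.00130). Ptbp1, the repressor of neuronal exons in progenitors, rose by 0.44 and 0.27 (adjusted p = 5.14e-04 and 0.0169). The splice forms of the neurexins themselves are not resolved by 1 value per gene.

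**Figure D4:**
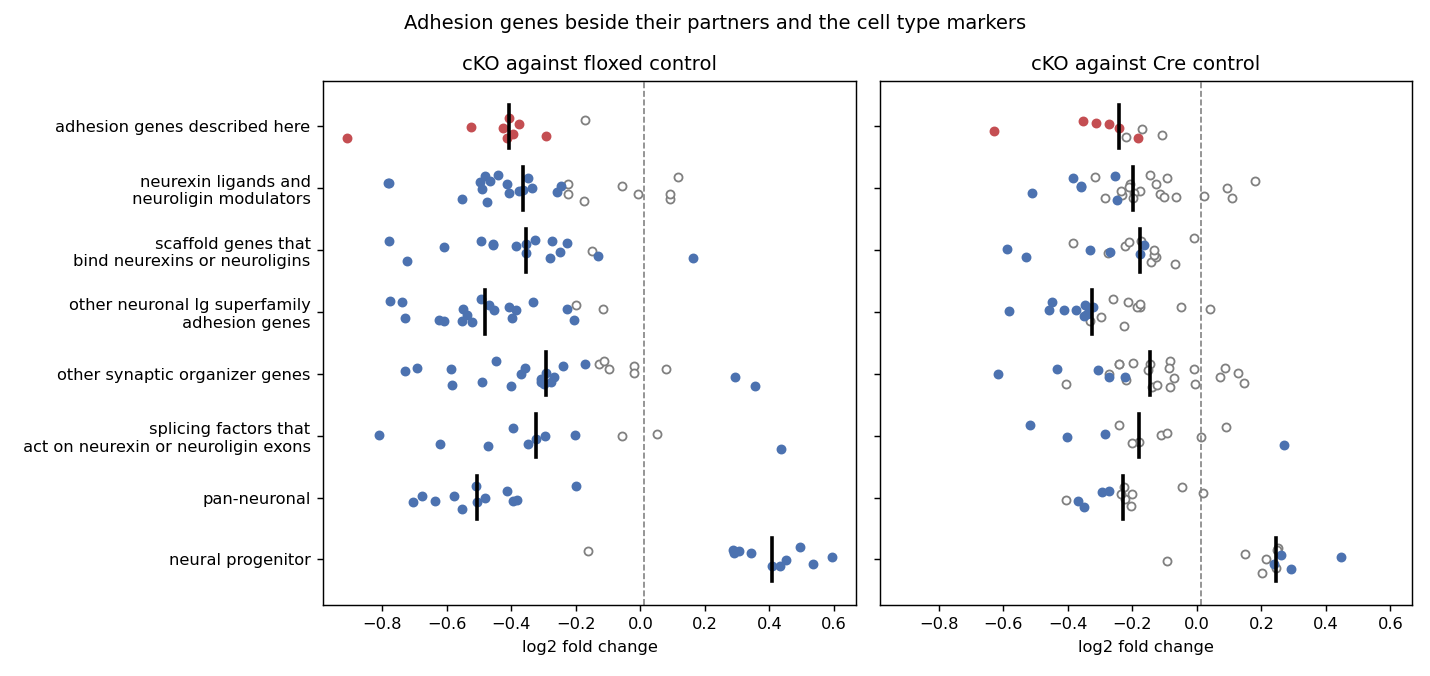
Log2 fold change (horizontal axes) of the adhesion genes, their partners and the neuronal and progenitor markers in the cKO, with the floxed control (left) or the Cre control (right) as reference, on the deposited scale. Each point is a gene (filled where the adjusted p passed), black bars are list medians and the dashed line is the median of all genes tested. The adhesion genes have medians of -0.41 and -0.24 (0.10 and -0.01 relative to pan-neuronal genes), against -0.51 and -0.23 for the pan-neuronal genes and 0.41 and 0.25 for the progenitor genes.

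Length was examined because most members are long. Of 199 tested genes with a span of at least 500 kb, leaving out the 6 members of that length, 108 were lower and 6 higher in the cKO when set against the floxed control (median -0.26, or 0.24 relative to pan-neuronal genes), which makes 54.3% lower beside 18.8% of all genes. On the pan-neuronal scale 5 of the 199 were lower and 99 higher, where 0.478% of all genes were called lower and 88.6% higher. With the Cre control as reference 45 were lower and 3 higher (median -0.17, or 0.07 relative to pan-neuronal genes). Of all genes tested, 4.85% were lower and 4.86% higher in that comparison. The 6 long members had log2 fold changes between -0.91 and -0.38, and the 3 shorter ones, Nrxn2, Nlgn2 and Nlgn3, had -0.41, -0.29 and -0.17. A span was known for 99.1% of the genes tested. Whether length had a part in these differences was not tested.

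For each member, the genes with the closest profile over the 9 libraries were found by the root mean square difference of log2 values centred on each gene's mean. Closest to Negr1 were Gria2, a subunit of AMPA receptors, with a difference of 0.042, and Dpp10, an auxiliary subunit of potassium channels, with 0.057, where the profile of Negr1 itself had a root mean square of 0.39. Gria2 and Dpp10 had log2 fold changes of -0.94 and -0.90 in the cKO with the floxed control as reference. Relative to pan-neuronal genes these were -0.43 and -0.40, and both passed as lower there, as Negr1 did (limma, adjusted p = 3.67e-04 and 0.00159). Because both genes were chosen for values close to those of Negr1 in these libraries, such likeness follows from the choice and is no separate result. Nearest to Nlgn1 were Phactr1 (0.033) and Frmd5 (0.039), and to Nlgn2 Pcdhb16 (0.022) and Wnk3 (0.028). The profiles of Lsamp and Nrxn3 were closest to Btbd3 (0.046) and Atp2b1 (0.037), a plasma membrane calcium pump. For Opcml, Ntm, Nrxn2 and Nlgn3 the closest genes were Mturn (0.030), Rap1gap (0.031), Lrrc55 (0.028) and Cx3cl1 (0.032). Among the members, Opcml and Nrxn2 were most alike (0.063) and Negr1 and Nlgn3 least alike (0.32).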

How the data were processed

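Poly-A selected libraries (NEBNext Ultra RNA) were made from midbrain tissue at E13.5, 3 per genotype. The authors deposited 1 table of log2 values, normalized between libraries and compressed at low expression, and 3536 of its 27360 rows lie below 0 in every library. The unit was read from the values. The submitters' processing notes name FastQC 0.10.1, kallisto 0.46.1, DESeq2 and the build mm10, with no role or order. Depth is unknown.

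Named rows with at least 1 cpm on the linear scale in at least 3 libraries were kept, 1 row per symbol (118 repeats dropped, among them the identical second row of Nrxn2), leaving 14029 genes. A mean per genotype was fitted with limma 3.58.1 in R 4.3.3 (eBayes with a trend, two-sided tests, Benjamini-Hochberg adjustment, limit 0.05; DEG limit 1.5-fold). The labels do not say whether a library is 1 embryo or a pool, so p-values measure only the spread between these libraries. The fit was tested on simulated data. Positions come from GENCODE M21 and promoters from RefSeq.

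Genes named were the 9 members, per list the 4 genes with the smallest p against the floxed control and any DEG there, and the closest profiles. The members and lists were chosen with earlier results of these data known. Of the synaptic organizers listed, 1 was not analysed here, and some genes that the rule names are not reported here. Alternatives were the filter, the threshold, the trend, the libraries fitted, a replicate block, 3 scalings and the omission of each library.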

Additional observations from a re-analysis of the deposited data

How the results depend on the processing

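Against the floxed control, the count of 8 members past the adjusted p and of 1 DEG (Negr1) was the same without each of the 6 libraries compared (8 to 8, 1 to 1) and in all other settings except 2. It was 9 with the unadjusted p, and relative to the pan-neuronal mean 3 members passed (1 lower, 2 higher) and 0 were DEGs. On that scale the log2 fold changes of Lsamp, Opcml, Ntm, Nrxn2, Nrxn3, Nlgn2 and Nlgn3 reversed to 0.11, 0.097, 0.13, 0.088, 0.077, 0.21 and 0.33. The scale moves all genes up, with a median of 0.51 here, 0.25 against the Cre control and 0.27 between the controls. Against the Cre control the count of 6 was 1 with no filter on low values, 2 with only the 6 libraries compared and 1 relative to the pan-neuronal mean, where 0 were DEGs and Ntm, Nrxn3, Nlgn2 and Nlgn3 reversed to 0.013, 0.063, 0.050 and 0.13. Without 1 library at a time it ranged from 1 to 8, and the count of DEGs from 0 to 1. Negr1 passed in all of these fits, with an adjusted p of 0.00161 to 0.0184. Why the counts changed between these fits was not tested. Between the controls, 0 members passed in any setting but the unadjusted p (5), also without each library (0 to 0). Relative to the pan-neuronal mean, Lsamp, Opcml, Ntm, Nrxn2, Nrxn3, Nlgn1, Nlgn2 and Nlgn3 reversed to 0.19, 0.13, 0.11, 0.098, 0.014, 0.096, 0.16 and 0.21, and without 1 library at a time Nlgn3 ranged from -0.11 to 0.0066 (without Cre control replicate 1).

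With the replicate number as a block, 8, 7 and 0 members passed in the 3 comparisons, with Ntm added against the Cre control. The numbers were not taken as pairs. After removal of group means, same-numbered libraries correlated between -0.027 and 0.26 (median 0.10), with 5 of 9 pairs over 0.1. Differently numbered libraries correlated between -0.28 and 0.16 (median -0.053), with 3 of 18 pairs over 0.1. Closest to their own number in both other groups were 4 of 9 libraries.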
